A study of Mus musculus and Homo sapiens with 41 samples.

Results

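The small nucleolar RNAs and small Cajal body RNAs of mouse myeloid progenitors were examined as 3 classes: C/D box RNAs (symbols Snord followed by a digit), H/ACA box RNAs (Snora) and Cajal body RNAs (Scarna). A symbol was kept where its normalized count was at least 10 in at least 2 of the 4 libraries of granulocyte-monocyte progenitors (GMPs). The rule thus used level and name and no genotype labels, but it was set with earlier results of these data known. Of 147 such symbols counted in GMPs, 115 passed: 70 of 98 Snord, 37 of 40 Snora and 8 of 9 Scarna. They stand among 20531 genes that passed the same limit, of 53756 rows in all.

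GMPs are bone marrow progenitors committed to granulocytes and monocytes, sorted here as Lineage negative, Cd45+, c-Kit+, Sca-1-, Cd34+ and FcγR+ cells. The GMPs came from lethally irradiated C57BL/6 Cd45-1 hosts reconstituted with bone marrow of C57BL/6 Cd45-2 mice, either wild type (WT) or Zbtb16 lu/lu, a mutant of the gene for the transcription factor PLZF. Both genotypes therefore passed through transplantation, and residual host cells were not measured here. The antibodies of the study include one against Cd45-2, the form carried by the donor cells. In the second experiment 416b cells, a Cd34+ murine myeloid line, received a lentivirus carrying PLZF-Flag or the Empty vector, and GFP+ cells were sorted. Their table lists 53 of the 115 members. GMPs gave 2 libraries per genotype and 416b cells 1 library per condition. Nothing in the labels says whether the GMP libraries came from separate animals or pools, so the p-values measure the spread between these libraries only.

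C/D box RNAs assemble with fibrillarin and guide 2′-O-methylation of ribosomal RNA, whereas H/ACA box RNAs assemble with dyskerin and guide pseudouridylation. Cajal body RNAs carry the same boxes, alone or together, and direct the same modifications on spliceosomal RNAs. A few members have another role: U14 (Snord14), U13 (Snord13), U22 (Snord22), U8 (Snord118) and U17 (Snora73) take part in cleavage or folding of the ribosomal RNA precursor. In mammals most of these RNAs are cut from introns of host genes, and they carry no poly(A) tail.

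The sequences below are given for the copies and the single members on which the results turn, read from GENCODE M21 transcripts of GRCm38 (mm10) and written from the 5′ end with T for U. In the C/D box RNAs capitals mark the letters TGATGA of the C box where they occur in the first 20 nt, and the letters CTGA of the D box in the last 20 nt. The U14 copies are shown because they are close copies and differed widely between libraries.
Snord14a: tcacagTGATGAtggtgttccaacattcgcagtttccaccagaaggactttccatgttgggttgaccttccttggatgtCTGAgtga
Snord14c: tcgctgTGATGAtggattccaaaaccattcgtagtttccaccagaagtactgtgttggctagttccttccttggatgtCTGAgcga
Snord14d: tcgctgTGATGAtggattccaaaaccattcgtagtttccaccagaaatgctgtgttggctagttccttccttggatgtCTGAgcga
Snord14e: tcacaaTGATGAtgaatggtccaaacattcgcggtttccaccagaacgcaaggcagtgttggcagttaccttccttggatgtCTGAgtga
Snord14a lies at chr7:116333171-116333257 on the minus strand in Rps13. The other 3 lie on the plus strand in Hspa8 at chr9:40803583-40803668, chr9:40803995-40804080 and chr9:40804748-40804837, and each overlaps an annotated exon of at least 1 host transcript. Snord14c and Snord14d were 97.7% identical with a longest shared stretch of 46 nt, while Snord14e shared 78.9% with either.

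The next C/D box RNAs are shown as a family whose copies went different ways (Snord1, in 1810032O08Rik on chromosome 11), as the abundant Gas5 member Snord78, as the members with most 416b reads (Snord16a and Snord104, the latter outside any host gene), and as the member that reached the limit for inclusion in WT alone (Snord92).
Snord1a: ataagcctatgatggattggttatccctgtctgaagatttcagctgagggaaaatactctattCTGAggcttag
Snord1b: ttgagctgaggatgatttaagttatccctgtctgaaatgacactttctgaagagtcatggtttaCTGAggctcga
Snord1c: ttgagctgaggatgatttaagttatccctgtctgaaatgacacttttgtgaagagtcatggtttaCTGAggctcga
Snord78: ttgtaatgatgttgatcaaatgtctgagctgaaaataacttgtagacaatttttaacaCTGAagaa
Snord16a: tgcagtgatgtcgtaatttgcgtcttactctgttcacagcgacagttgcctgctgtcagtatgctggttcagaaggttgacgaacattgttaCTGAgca
Snord104: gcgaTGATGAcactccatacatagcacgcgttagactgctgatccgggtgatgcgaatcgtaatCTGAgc
Snord92: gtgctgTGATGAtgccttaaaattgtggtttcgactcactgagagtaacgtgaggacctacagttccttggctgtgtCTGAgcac
Their positions were chr11:116674598-116674671, chr11:116674148-116674222 and chr11:116672506-116672581 for Snord1a, Snord1b and Snord1c, chr1:161036984-161037049 for Snord78, chr9:64175423-64175521 for Snord16a in Rpl4 and chr11:106500993-106501062 for Snord104. Snord92 was at chr17:71631281-71631365 in an intron of Wdr43. All 7 lie on the plus strand. Snord1b and Snord1c were 97.4% identical, and both shared about as little with Snord1a (65.9% and 66.3%).

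In the H/ACA box RNAs and in Scarna13 capitals mark the first match to ANANNA (H box) between 35% and 65% of the length, and the ACA within the last 10 nt. The U17 copies are shown as the most abundant H/ACA pair, Snora78 for its difference between libraries, and Scarna13 as an abundant Cajal body RNA.
Snora73a: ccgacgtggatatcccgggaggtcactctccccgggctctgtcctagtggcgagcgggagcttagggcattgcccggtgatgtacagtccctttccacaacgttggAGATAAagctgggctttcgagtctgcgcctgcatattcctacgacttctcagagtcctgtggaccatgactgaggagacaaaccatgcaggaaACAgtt
Snora73b: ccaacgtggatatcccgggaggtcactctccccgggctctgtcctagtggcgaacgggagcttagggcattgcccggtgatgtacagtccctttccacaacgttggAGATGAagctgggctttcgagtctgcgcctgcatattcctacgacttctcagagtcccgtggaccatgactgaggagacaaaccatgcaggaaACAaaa
Snora78: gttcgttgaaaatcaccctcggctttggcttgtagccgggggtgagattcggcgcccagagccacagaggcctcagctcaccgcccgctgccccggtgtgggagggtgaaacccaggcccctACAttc
Scarna13: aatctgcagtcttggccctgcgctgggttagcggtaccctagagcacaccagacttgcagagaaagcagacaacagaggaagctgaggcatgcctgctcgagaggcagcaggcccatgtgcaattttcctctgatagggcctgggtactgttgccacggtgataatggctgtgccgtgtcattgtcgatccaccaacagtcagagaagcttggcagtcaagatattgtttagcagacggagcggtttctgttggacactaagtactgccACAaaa
Snora73a (chr4:132352775-132352979) and Snora73b (chr4:132352322-132352526) lie on the minus strand in Snhg3 and were 96.6% identical, with a longest shared stretch of 56 nt. Snora78 lies at chr17:24719676-24719803 in Snhg9 and Scarna13 at chr12:105031075-105031349 in Snhg10, both on the minus strand. In Snora78 and Scarna13 no ANANNA fell in the searched window.

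These letters followed the classes. On the RNA strand TGATGA was in the first 20 nt of 44 of 70 Snord members (62.9%), 0 of 37 Snora and 4 of 8 Scarna, against 0.129% of 3890 miRNA, snRNA and misc_RNA transcripts of 60 to 300 nt. CTGA was in the last 20 nt of 68 of 70 Snord (97.1%) and 4 of 37 Snora (10.8%), against 7.17%. The 2 motifs share the letters TGA and were searched at opposite ends. ACA was in the last 10 nt of 35 of 37 Snora (94.6%) and 6 of 70 Snord, against 14.4%, and ANANNA was in the window of 34 of 37 Snora (91.9%) and 27 of 70 Snord (38.6%), against 48.6%. Of the 8 Scarna members 4 held both C and D letters and 2 held both H and ACA letters. By length, 61 of 70 Snord members, 0 of 37 Snora and 2 of 8 Scarna were shorter than the 100-nt read of these libraries.

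A few RNAs held most of the counts of the H/ACA and Cajal body classes, whereas the C/D class was spread more evenly. Scarna10, Scarna13 and Scarna2 together made up 94.8% of the Scarna sum and 44.9% of the sum of all members. Snora73a and Snora73b made up 59.0% of the Snora sum. The 2 highest Snord members, Snord17 and Snord78, made up 18.5% of theirs. All members together were at 1104 to 1420 CPM, reads scaled to equal library totals.

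Per 100 nt of annotated length the highest members were Snora73a (3262 normalized counts per 100 nt, mean of 4 libraries), Scarna10 (3059), Scarna13 (2509), Snora73b (1388), Scarna2 (1333) and Snord78 (947). The median level on this scale was 101 for Snord, 100.3 for Snora and 474 for Scarna. Scarna8 (8.65) was the lowest member on this scale. The order is that of the means, and in WT library 2 Scarna10 was above Snora73a. Recovery of RNAs by length was not measured, so these values and class medians are counts per length and not levels in the cell.

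Members also differed within a host. Of the 22 hosts with several members, Rack1 had the widest gap in mean count, 5.76-fold between Snord96a (456) and Snord95 (79.2), followed by Wdr43 with 4.85-fold between Snord53 (71.9) and Snord92 (14.8) and Gas5 with 4.66-fold between Snord78 (625) and Snord47 (134). In Rpl13a the 4 members Snord32a, Snord33, Snord34 and Snord35a lay within 1.54-fold. These gaps are between means over the 4 libraries and varied between single libraries, and Snord92 rests on few counts.

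Some symbols of the 3 classes had no counts. Of the 32 symbols below the limit 22 were at 0 in every GMP library, among them all 17 Snord116 copies, Snord107 and Snord64, which belong to the imprinted cluster that is active in neurons. The column names speak of unique alignments, and whether reads of these repeated copies were lost to multiple mapping was not tested. Just inside the limit were Snord92 (22.9 and 22.2 in WT, 7.03 and 7.20 in Zbtb16 lu/lu) and Scarna8 (10.9, 6.75, 6.02 and 21.6). Just outside were Snora36b (6.96, 8.68, 0 and 10.3) and Snord98 (4.97, 11.6, 6.02 and 5.14). In all, 108 members reached 10 in every library. Snord92 was the 1 member that reached it in WT alone, so the limit itself bears on its difference, and 0 members reached it in Zbtb16 lu/lu alone.

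Before genotypes are compared, WT library 2 has to be set apart, because these RNAs differed more between it and the other libraries than between any other pair. The column names carry dates, and WT library 1 and Zbtb16 lu/lu library 2 share one, while WT library 2 and Zbtb16 lu/lu library 1 each have their own. The libraries summed to between 38562940 and 40130730 normalized counts. The values are whole multiples of 0.964 to 1.028, so 1 normalized count stood for close to 1 counted read or read pair. Which of these was counted is not given in the sources used here. Zbtb16 itself was at 705 and 828 in WT and at 269 and 369 in Zbtb16 lu/lu (log2 fold change -1.28, standard error 0.20, limma adjusted p = 0.299). The GMP markers Mpo, Elane, Prtn3, Ctsg, Cebpa, Kit, Cd34, Fcgr3 and Fcgr2b were all at 3338 or more. Erythroid markers summed to 163 and 1034 in WT and to 764 and 417 in Zbtb16 lu/lu, with WT library 2 highest for 5 of 6 genes, and their part in what follows was not tested.

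Over the 115 members log2 values of WT library 2 correlated with those of the other 3 libraries at Pearson's r between 0.905 and 0.912, and those of the other pairs at 0.975 to 0.980. This is across genes of shared libraries and is a description. Over all genes tested the same values were 0.972 to 0.973 and 0.986 to 0.990. The median absolute log2 difference between the WT libraries was 0.50 over the members and 0.28 over all genes tested, whereas WT library 1 and Zbtb16 lu/lu library 2, which share their date, differed by a median of 0.255 and 0.245. WT library 2 was the highest or lowest library for 84 of 115 members (73.0%), against 64.2% of all genes tested.

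The sums of the C/D and H/ACA classes differed in opposite directions in WT library 2, while the median member of both was higher in it, by 0.25 for Snord and 0.21 for Snora on the log2 scale. The Snord members summed to 12468 normalized counts in WT library 2, against 9371 in WT library 1 and 8623 and 9969 in Zbtb16 lu/lu, so WT library 2 was the highest. The Snora members summed to 10837 in WT library 2, against 18779, 17024 and 18002, so it was the lowest. Most of that gap lay in Snora73a and Snora73b: without them the sum was 5946 in WT library 2, against 6779, 6506 and 7285, or 0.867 times the mean of the others. The ratio of the Snord sum to the Snora sum was 1.15 in WT library 2 and between 0.499 and 0.554 in the other 3.

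**Figure D1:**
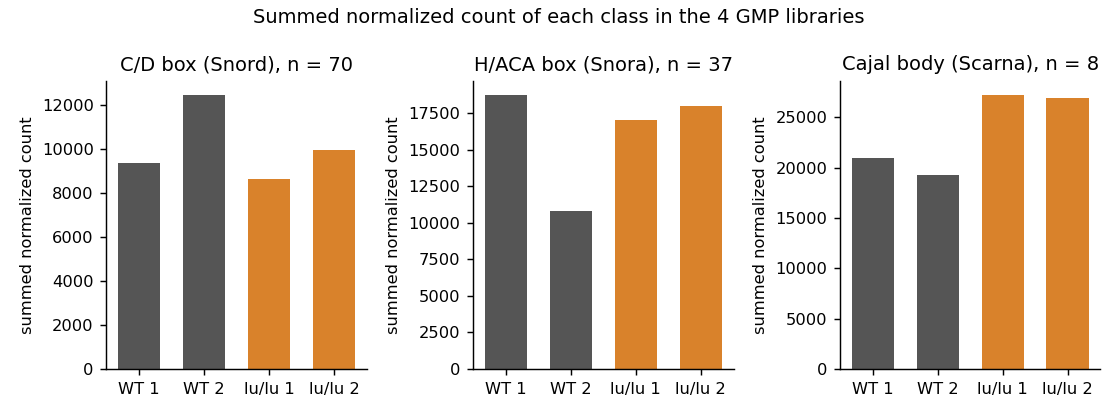
Bars give the summed normalized count (linear axis from 0) of the 70 Snord, 37 Snora and 8 Scarna members in each GMP library, WT in grey and Zbtb16 lu/lu in orange. In WT library 2 the C/D sum is the highest (12468) and the H/ACA sum the lowest (10837), while the Cajal body sum is higher in both Zbtb16 lu/lu libraries (27237 and 26882) than in both WT libraries.

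Among C/D box RNAs the U14 copies stood out in WT library 2. Snord14d was at 302 and 885 in WT and at 240 and 251 in Zbtb16 lu/lu. Snord14e was at 274 and 734, then 190 and 253. Snord14c was at 232 and 486, then 199 and 180. For all 3 copies in Hspa8 WT library 2 was far above the other 3 libraries, which lay close together, and their sum in it was 2.98 times the mean of the others. Snord14a, the copy in Rps13, was at 76.6 and 122 and then at 86.3 and 83.3, again highest in WT library 2. The Gas5 members Snord78 (559 and 960, then 476 and 505) and Snord47 (106 and 249, then 67.2 and 114) were also highest in WT library 2. U3, an abundant C/D box RNA whose symbols fall outside the naming rule, was at 867 and 8880 and then at 637 and 875 for Rnu3a. Without the U14 copies the Snord sum in WT library 2 was still 1.2 times the mean of the others.

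Not all C/D box RNAs followed. Snord68, in Rpl13, was at 43.8 and 1.93 and then at 34.1 and 34.95, so it was nearly absent from WT library 2, while Rpl13 itself was within 5573 to 5981 in all libraries. Snord13 (83.5 and 42.4, then 89.3 and 121), Snord33 (164 and 81.0, then 143 and 159) and Snord34 (182 and 101, then 120 and 172) were also lowest there. Of the 28 Snord members with a mean of at least 100, 18 were highest (64.3%) and 3 lowest (10.7%) in WT library 2. Over all genes tested these shares were 32.0% and 32.2%.

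Among the 23 H/ACA box RNAs with a mean of at least 100, WT library 2 was lowest for 11 (47.8%) and highest for 9 (39.1%). Over all genes tested these shares were 32.2% and 32.0%. The most abundant of the 23 were among those lowest in WT library 2. Snora73a was at 8627 and 3402 in WT and at 7586 and 7132 in Zbtb16 lu/lu, and Snora73b at 3373 and 1489 and then at 2932 and 3585. Snora74a (1205 and 563, then 1122 and 1179), Snora78 (586 and 263, then 674 and 689) and Snora68 (262 and 148, then 235 and 301) showed the same pattern, with 3 libraries close together and WT library 2 apart. Snora65 did not take part (416 and 416, then 403 and 410). Other members went the other way. The 14 with a mean under 100 summed to 904 in WT library 2, against 754 to 852 elsewhere, and Snora81 (127 and 258, then 146 and 183) and Snora64 (107 and 209, then 110 and 127), somewhat above that mean, were also highest in it. The sum of the class in WT library 2 was 0.604 times the mean of the others.

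**Figure D2:**
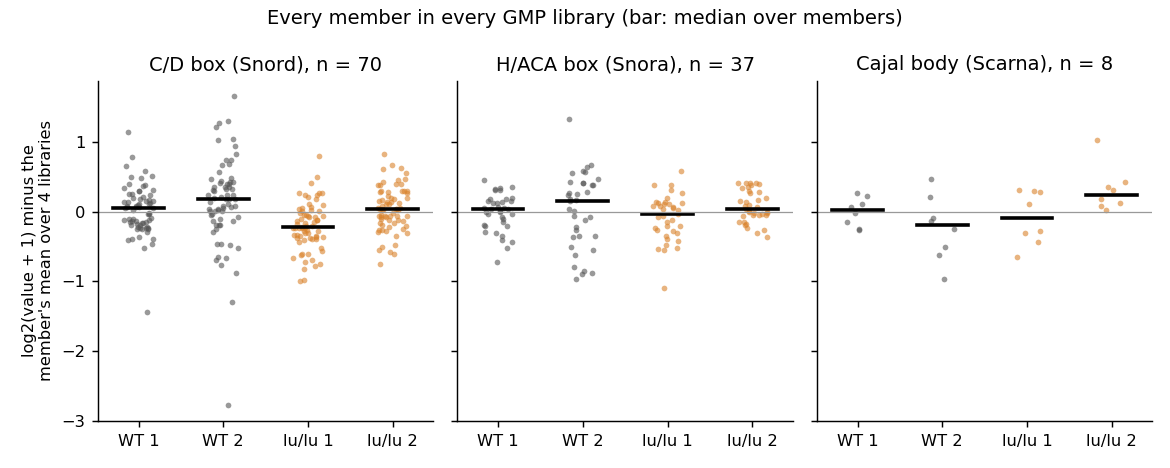
Each point is a member in a library, placed by its log2(value + 1) minus its own mean over the 4 GMP libraries, with a black bar at the median of the class. The points of WT library 2 spread most widely in both directions in the C/D and H/ACA classes, and Snord68 is the lowest of them.

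Between genotypes no member passed the test. With limma on log2(value + 1) and Benjamini-Hochberg adjustment over all genes, 0 of 115 members and 0 of 20531 genes (0%) had an adjusted p under 0.08, and the adjusted p-values of members ran from 0.326 to 0.999. At an unadjusted p under 0.05 there were 9 members (7.83%), 3 higher and 6 lower in Zbtb16 lu/lu, against 2028 of all genes tested (9.88%). Both Zbtb16 lu/lu libraries lay on 1 side of both WT libraries for 43 members (37.4%), 15 above and 28 below, against 43.9% of all genes. Both shares of the members were thus no higher than those of all genes. With a library left out, the lone library of its genotype is assumed to vary like the other pair, and the calls then changed. Without WT library 1 there were 35 members past the limit (30.4%), against 22.7% of all genes tested. Without WT library 2 there were 3 (2.61%), Scarna10, Scarna2 and Snord104, against 13.4% of all genes tested. Without Zbtb16 lu/lu library 1 or 2 it was 0 members, against 0.00487% and 0.312%. For a single value the smallest two-sided p of an exact permutation test of 2 against 2 libraries is 0.333.

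The classes differed in their medians. The median log2 fold change was -0.17 for Snord, -0.03 for Snora and 0.31 for Scarna, against -0.01 for all genes tested. Of the 70 Snord members 25 had a positive and 45 a negative value, of the 37 Snora 18 and 19, and of the 8 Scarna 5 and 3. Without WT library 2 the medians were -0.15, -0.05 and 0.15, and within the shared date, with 1 library per genotype and no test, they were -0.04, 0.07 and 0.31. Without Zbtb16 lu/lu library 2 the Scarna median was -0.077, and without Zbtb16 lu/lu library 1 that of Snora was 0.030 and that of Snord -0.04. Without WT library 1 the Snord and Snora medians were -0.27 and -0.23. The sign of the single member's value changed without WT library 2 in 22 of 70 Snord and 17 of 37 Snora members but in 1 of 8 Scarna.

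**Figure D3:**
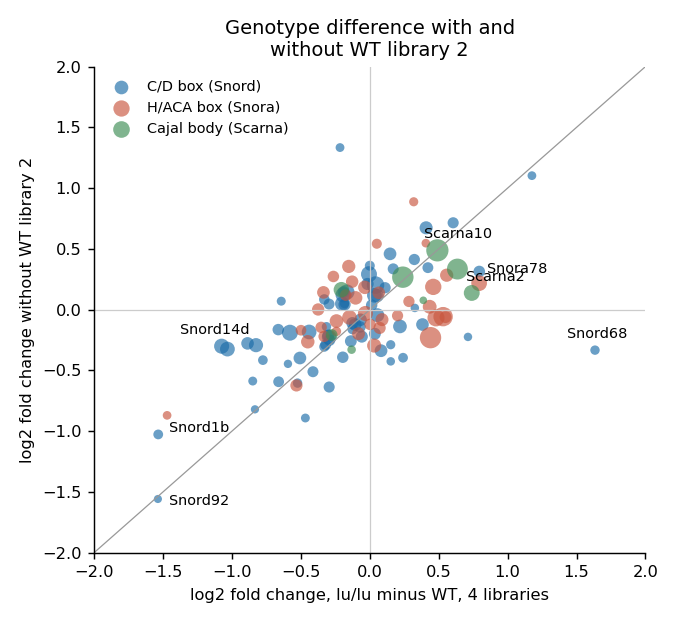
Each point is a member, with the log2 fold change of Zbtb16 lu/lu against WT over 4 libraries on the horizontal axis and the same without WT library 2 on the vertical axis; larger points have a higher mean count and the diagonal marks equal values. Scarna10 lies near the diagonal, and so does Snord92, which passed the limit through WT alone, while Snord14d, Snora78 and Snord68 move toward or across 0.

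The 6 Snord members with an unadjusted p under 0.05 (8.57%, against 9.88% of all genes) were all lower in Zbtb16 lu/lu. They were Snord1b, Snord14c, Snord14d, Snord14e, Snord78 and Snord92, the last of which reached the limit of 10 in WT alone, so that its difference was partly fixed by that limit and its p is no support for one. Snord14d differed by -1.07 on the log2 scale (standard error 0.41, limma adjusted p = 0.470) with 4 libraries and -0.30 without WT library 2, and Snord78 by -0.58 (0.24, adjusted p = 0.491) and -0.19. Snord14c (-0.82) and Snord14e (-1.03) became -0.29 and -0.32. For these 4 members most of the difference rested on WT library 2, though both Zbtb16 lu/lu libraries lay below WT library 1 as well.

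Snord1b, of low count, was at 34.8 and 71.4 in WT and at 14.1 and 19.5 in Zbtb16 lu/lu, a log2 fold change of -1.53 (0.51, adjusted p = 0.439) that was -1.03 without WT library 2. Its near-identical copy Snord1c did not share it (24.9 and 10.6, then 14.1 and 23.6), nor did Snord1a (53.7 and 48.2, then 70.3 and 66.8), although all 3 lie in 1810032O08Rik, which was between 798 and 863 in all libraries. Where copies are this alike, reads may be divided between them with uncertainty. Snord92, whose counts are given above, is described without a test. Snord53, in the same host Wdr43, was at 65.6 and 72.3 and then at 69.2 and 80.2, and the host itself, which encodes a factor of ribosome biogenesis, at 9202 and 9138 and then at 7863 and 7776.

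Of the 6 most abundant C/D box RNAs, Snord78 and Snord14d are given above and the other 4 had overlapping groups. Snord17 was at 1095 and 1368 in WT and at 1174 and 1352 in Zbtb16 lu/lu (log2 fold change 0.04, standard error 0.16), and Snord15b at 498 and 753 and then at 614 and 607 (-0.01). Snord96a was at -0.17 and Snord22 at -0.19. Snord118, of lower level, also overlapped (-0.11). The highest values among members with a mean of at least 100 were those of Snord104 (119 and 173, then 192 and 190, log2 fold change 0.41), Snord33 (0.38), Snord83b (0.22) and Snord32a (0.15). Of these only Snord104 had both Zbtb16 lu/lu libraries above both WT libraries. Without WT library 2 these 4 were 0.67, -0.12, -0.14 and 0.46, and the abundant Snord17, Snord15b, Snord96a and Snord22 were 0.20, 0.29, 0.15 and 0.12. Among the lowest, Snord47 (-0.89, and -0.28 without WT library 2) joined the 3 U14 copies.

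Among H/ACA box RNAs Snora78 had the highest value with a mean of at least 100. It differed by 0.79 on the log2 scale (standard error 0.32, limma adjusted p = 0.481), and by 0.22 without WT library 2. Snora61 (174 and 119, then 193 and 233, log2 fold change 0.56), Snora73b (0.53) and Snora74a (0.48) followed, and without WT library 2 they were 0.28, -0.06 and -0.07. Snora73a, with 0.44 over 4 libraries, was -0.23 without it. Snora57 was at 740 and 506 in WT and at 780 and 911 in Zbtb16 lu/lu (0.46, and 0.19 without WT library 2), so both mutant libraries were above both WT libraries. The lowest were Snora33 (139 and 122, then 77.3 and 105, log2 fold change -0.53), Snora70 (202 and 261, then 160 and 177, -0.45), Snora21 (-0.37) and Snora64 (-0.34). Snora33 and Snora70 had groups that did not overlap, and without WT library 2 they were -0.62 and -0.26, whereas Snora21 and Snora64 were 0.002 and 0.14.

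Cajal body RNAs were the class whose sum was higher in both Zbtb16 lu/lu libraries than in both WT libraries. The 8 members summed to 20964 and 19271 in WT and to 27237 and 26882 in Zbtb16 lu/lu, a ratio of 1.35 between genotypes and of 1.29 when WT library 2 was left out. Scarna10, a composite RNA with boxes of both kinds that directs modification of U5, was at 8277 and 8249 in WT (8263 ± 20.01, SD, n = 2) and at 12103 and 11140 in Zbtb16 lu/lu (11622 ± 681, SD, n = 2). The difference was 0.49 on the log2 scale (standard error 0.11, limma adjusted p = 0.326), 0.49 without WT library 2 and 0.43 within the shared date, and Scarna10 had the lowest adjusted p of all members. The WT libraries were nearly equal, and the gap to either Zbtb16 lu/lu library was wider than the spread within a genotype.

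Scarna2 was at 5282 and 3476 in WT and at 6515 and 6808 in Zbtb16 lu/lu, a log2 fold change of 0.64 (0.18, adjusted p = 0.422) that was 0.33 without WT library 2. Scarna13 was at 6206 and 6446 and then at 7424 and 7519 (0.24, standard error 0.11, adjusted p = 0.510), and 0.27 without WT library 2. Scarna6 was at 659 and 285 and then at 695 and 757 (0.74), and 0.14 without WT library 2. In these 3 the groups did not overlap either, and in all 5 of 8 Scarna members (62.5%) had groups that did not overlap, against 43.9% of all genes. With 8 members nothing particular to the class is read from that share. The other 4 were not higher in both: Scarna17 lay below WT in both Zbtb16 lu/lu libraries (96.5 and 106, then 74.3 and 93.6), while Scarna9 was at 410 and 685 and then at 405 and 520 and Scarna3a at 21.9 and 16.4 and then at 13.05 and 22.6, with overlapping groups, and Scarna8 lay near the limit. Leaving out Scarna10, Scarna13 and Scarna2, the class summed to 1198 and 1099.5 in WT and to 1194 and 1415 in Zbtb16 lu/lu, so the class sum rests on 3 RNAs.

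**Figure D4:**
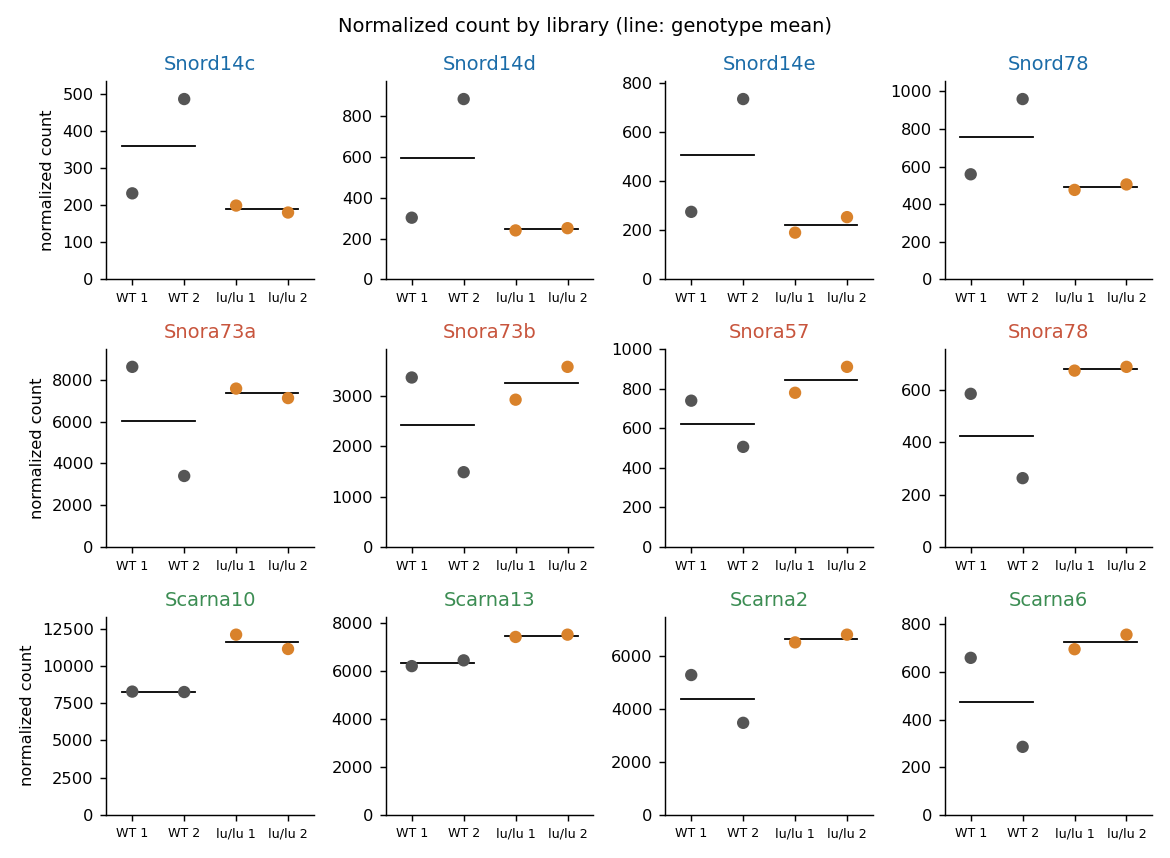
Normalized counts (linear axes from 0) of 4 members of each class, a point per library, WT in grey and Zbtb16 lu/lu in orange, with a line at each genotype mean. WT library 2 lies apart from the other 3 libraries for the C/D members and for Snora73a, Snora73b and Snora78, while for Scarna10 and Scarna13 the libraries of a genotype lie together and the genotypes apart.

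Other RNAs without a poly(A) tail were set beside the members. Of 23 entries of small non-coding RNAs that were tested, 10 had both Zbtb16 lu/lu libraries above both WT libraries and 1 below, together 47.8% against the 43.9% of all genes, 0 passed the adjusted test, and the median log2 fold change was 0.19. Terc, the telomerase RNA with an H/ACA domain, was at 421 and 261 and then at 692 and 483. Rpph1, the RNA of RNase P, was at 92581 and 36481 and then at 165632 and 142072 (log2 fold change 1.4, standard error 0.35, limma adjusted p = 0.370, and 0.73 without WT library 2), and Rmrp at 47723 and 23869 and then at 76056 and 67510. All 3 were lowest in WT library 2 and higher in Zbtb16 lu/lu than in WT library 1. Of 69 replication-dependent histone genes, whose mRNAs also lack the tail, 65 had the Zbtb16 lu/lu libraries above both WT libraries, with a median of 0.88 and of 0.60 without WT library 2. Markers of mature neutrophils summed to 1789 and 1074 in WT and to 4793 and 2349 in Zbtb16 lu/lu, with 6 of 8 genes not overlapping and Mmp9 at 0 in WT library 2. Monocyte markers summed to 72943 and 86566 and then to 104320 and 98569, with 6 of 6 not overlapping. B cell markers summed to between 1059 and 1278, nearly all of it Cd79b (1055 to 1270), with Cd79a and Ms4a1 below 10 throughout. T or NK cell markers summed to between 11079 and 11723, nearly all of it Nkg7 (11056 to 11712), with Cd3e and Cd8a below 10 throughout. Mast cell and basophil markers summed to 8204 and 7942 and then to 7236 and 5672, and stem cell markers to between 84.3 and 117. The part of any of these in the Scarna values was not tested, and in sorted bulk cells a change in the cells' makeup and a change in RNA per cell cannot be told apart.

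Members were compared with the genes that carry them. A host on the same strand was found for 107 members in 76 genes, among them genes of ribosomal proteins and non-coding Snhg genes, and 58 members overlapped a host exon while 49 lay in introns alone. Over host genes the median difference was 0.0002 on the log2 scale, with 4 higher and 7 lower of 77 tested entries (14.3%, against 9.88% of all genes) at an unadjusted p under 0.05 and 0 past the adjusted limit. Across the 107 pairs Pearson's r between member and host was 0.403 for the fold change over 4 libraries and 0.198 without WT library 2, and 0.431 for the difference of WT library 2 from the others. For the fold change over 4 libraries r was 0.458 for the 58 members overlapping a host exon and 0.34 for the 49 in introns. These are descriptions over members that share libraries and, in part, hosts. Where a member overlaps a host exon, member and host may also share reads.

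Hosts and members can also share reads. Snhg3 exceeded Snora73a, which overlaps its exon, by 538 to 679 normalized counts in every library, so nearly all of the Snhg3 count followed that of Snora73a. Snord80 and Snora16a each have 2 overlapping entries with nearly the same values (339 and 328 for Snord80 in WT library 1), and the higher entry was used. Hspa8 was at 73497 and 44072 in WT and at 34437 and 32189 in Zbtb16 lu/lu (log2 fold change -0.77, standard error 0.21, limma adjusted p = 0.398). Like its 3 U14 members it was lower in Zbtb16 lu/lu, but it was highest in WT library 1 and they in WT library 2. Gas5, host of Snord78, Snord80 and Snord47, was at 11281 and 13474 and then at 10591 and 12521. Ncapd2, whose exon Scarna10 overlaps, was at 22264 and 22682 and then at 25327 and 25433 (log2 fold change 0.18, against 0.49 for Scarna10). These Ncapd2 counts may include reads of Scarna10. How many was not measured, so the host without its member was not compared.

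Genes for the proteins of these particles mostly had lower values in Zbtb16 lu/lu, with 0 genes past the adjusted test. Of 9 C/D core and assembly genes 9 had a negative log2 fold change, with a median of -0.27 against -0.01 for all genes tested, and 6 (66.7%, against 43.9% of all genes) had groups that did not overlap. Nop58, a core C/D protein, was at 10075 and 10990 in WT and at 8975 and 8333 in Zbtb16 lu/lu (log2 fold change -0.28, standard error 0.11, limma adjusted p = 0.481). Znhit6, an assembly factor, was at 636 and 547 and then at 404 and 474 (-0.43). Nop56 (-0.12) and the methyltransferase Fbl (-0.09) overlapped between genotypes. Without WT library 2 the median was -0.35 and without WT library 1 it was -0.15.

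Of 6 H/ACA genes 6 were negative, with a median of -0.14 (-0.28 without WT library 2 and -0.09 without WT library 1). The assembly factor Naf1 was at 634 and 602 in WT and at 480 and 459 in Zbtb16 lu/lu (-0.40, standard error 0.16, limma adjusted p = 0.478), and the pseudouridine synthase Dkc1 at 8689 and 9333 and then at 8145 and 7986 (-0.16). Of 9 Cajal body genes 7 were negative and 2 positive, with a median of -0.14 (-0.24 without WT library 2 and -0.09 without WT library 1). Tgs1, which hypermethylates the caps of small RNAs, was at 1763 and 1971 and then at 1511 and 1406 (-0.35, standard error 0.13, adjusted p = 0.468), and Coil, the scaffold of the body, at 1125 and 1003 and then at 942 and 956 (-0.16). Wrap53, which brings Scarna RNAs to Cajal bodies, was at 1104 and 707 and then at 875 and 978 (0.07). The 4 shared assembly genes had a median of -0.06, which was 0.15 without WT library 1 and -0.17 without WT library 2. The 14 processing and decay genes had a median of -0.08 (-0.16 without WT library 1), with Ssb (-0.36), Skiv2l2 (-0.31) and Dis3 (-0.29) the lowest of the latter.

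In 416b cells reads on the members were few. The libraries were primed at poly(A) tails, and the 53 listed members held 2013 reads of the Empty vector library and 609 of the PLZF-Flag library, or 36.9 and 30.5 CPM, whereas the same 53 were at 396 to 467 CPM in GMPs. By class 31 Snord, 21 Snora and 1 Scarna (Scarna13, with 2 reads and 1 read) were listed. Snord16a and Snord104 alone held 52.8% of the members' reads with the Empty vector and 57.5% with PLZF. Snora73a, Scarna10 and Scarna2, among the highest in GMPs, are not listed. In 18 members the 2 libraries averaged 10 normalized counts or more, and of these 14 overlapped a host exon, 3 lay in introns and 1, Snord104, had no host.

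Zbtb16, the gene that was introduced, had 1538 reads with PLZF-Flag and 632 with Empty vector (log2 ratio 2.73). After scaling, 14 of the 18 members were lower with PLZF-Flag and 4 higher. Their median log2 ratio was -0.27, against -0.0001 for all genes with such a mean. A ratio of at least 1 in either direction was found for 5 of 18 members, against 1.41% of 11835 genes. The background rises at low counts. It was 12.0% for genes averaging from 10 to under 50, a range that holds 15 members and all 5 of these. There is no replicate, so these ratios compare 2 libraries and have no test.

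The best covered member, Snord16a, went from 659 reads to 196 in the shallower PLZF-Flag library, which after scaling is a ratio of -0.30 on the log2 scale (95% Clopper-Pearson interval -0.54 to -0.07, counting error only). Snord104 had 403 and 154 reads and a ratio of 0.06 (-0.22 to 0.33), so no difference was detectable at this depth. Snora65 had 112 and 41 reads (-0.0007, -0.55 to 0.53). Snora68 (71 and 13 reads, -0.97, -1.98 to -0.14) and Snora7a (67 and 13 reads, -0.89, -1.90 to -0.05) had intervals below 0. The lowest ratio was that of Snord22, with 41 and 2 reads (-2.58, -6.00 to -0.96). The other ratios of at least 1 in size were those of Snora24, Snora31, Snord12 and Snora5c, and their intervals all included 0.

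In 9 listed members both libraries had 3 or fewer reads and no ratio is given, among them Snora74a, Snord14a and Scarna13. The H/ACA and C/D members did not separate: of the 9 Snord with a mean of at least 10, 6 were lower and 3 higher, and of the 9 Snora 8 were lower and 1 higher, with medians of -0.30 and -0.25.

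**Figure D5:**
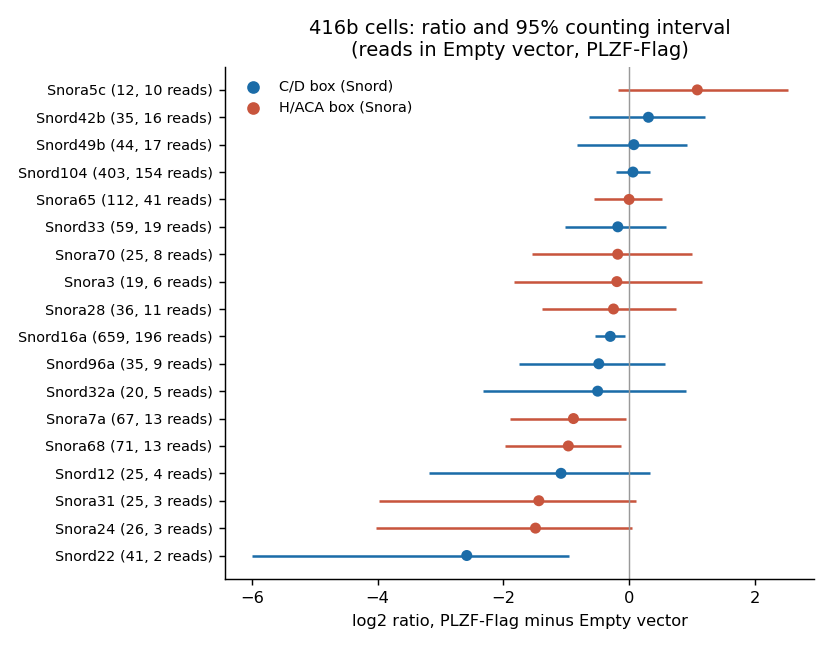
Points give, on a log2 axis, PLZF-Flag over Empty vector in 416b cells for the 18 members averaging 10 normalized counts or more, and lines the 95% exact binomial interval, which covers counting error only. The intervals of Snord16a, Snora68, Snora7a and Snord22 lie below 0 and those of the other 14 include 0.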

How the data were processed

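Total RNA of GMPs was extracted on columns, depleted of ribosomal RNA and sequenced as stranded 100-nt paired-end libraries, 2 per genotype (the methods state 3 independent extractions, of which 2 libraries per genotype were analysed here). RNA of 416b cells was amplified from poly(A) tails with a low-input kit, 1 library per condition. Recovery of transcripts this short by either preparation was not measured. The authors used subread-align (version 1.5.0 in the methods) against mm10 and featureCounts (version 1.5.0 in the labels). The annotation and strand settings are not given in the sources used here. The signal values the authors deposited are gene counts scaled by size factors from DESeq2. The authors' own fold changes, p-values, adjusted p-values, means and log2 columns were not used.

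The members and all gene lists were chosen with earlier results of these data known. Log2(value + 1) of 20531 genes with at least 10 in at least 2 libraries was fitted by limma 3.58.1 with an intensity trend (R 4.3.3), adjusted by Benjamini-Hochberg, with a threshold of 0.08. The fit was tested on simulated data. All GMP values are whole multiples (within 0.1) of a step of 0.964 to 1.028. No count test was run. The step was 0.605 and 1.65 in the 416b libraries, 84.3% and 85.5% of all values and all those of the 57 listed symbols were whole multiples of it, and the values divided by it summed to 54529333 and 19995643 reads. No ratio is given at 3 or fewer reads in both libraries. 1 row without a gene name was left out of the 416b table. Intervals and floors cover counting error only.

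Sequences, positions and lengths came from GENCODE M21, matched by symbol for all 115 members. A host is the shortest gene on the same strand that contains the member and is not itself a small RNA. Identity was counted over a global alignment. Named members are the 6 highest by mean and the 4 highest and 4 lowest log2 fold changes (mean of at least 100) of each class, all Scarna, members listed for 416b cells, and genes of the lists (particle proteins, assembly, Cajal body, processing, hosts, other small RNAs, histones, cell type markers). Snord1a, Snord1b, Snord1c, Snord68, Snord92, Snord34, Snord53, Snora81, and hosts set beside members were chosen after their values were seen. Alternatives were pseudocounts of 0.1 and 10, other filters and scalings, no intensity trend, leaving out each library and an adjusted p threshold of 0.05. ChIP-seq and ATAC-seq files were not used.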

Additional observations from a re-analysis of the deposited data

How the results depend on the processing

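No paired analysis was possible because nothing in the GMP library names numbers them, and genotypes share only 1 date. The count of genes past the limit was 0 with pseudocounts of 0.1 and 10, without a filter, at a mean of at least 100, with library totals made equal, with quantiles made equal, without the intensity trend and a threshold of 0.05. Leaving out a library leaves 1 library in a genotype, assumed to vary like the other pair, and the count then ran from 1 to 4662. Without WT library 1 it was 4662 and included 35 members, without WT library 2 it was 2749 and included Scarna10, Scarna2 and Snord104, without Zbtb16 lu/lu library 1 it was 1, and without Zbtb16 lu/lu library 2 it was 64, the last with 0 members each. The cause was not tested. The lowest and highest medians with a library left out were -0.27 and -0.04 for Snord, -0.23 and 0.030 for Snora, and -0.077 and 0.35 for Scarna, so those of Snora and Scarna changed sign, Snora without Zbtb16 lu/lu library 1 and Scarna without Zbtb16 lu/lu library 2. Other settings kept the sign of every class median, from -0.21 to -0.12 for Snord, -0.06 to -0.03 for Snora and 0.15 to 0.49 for Scarna. In 416b cells 5 members had an absolute log2 ratio of at least 1, which became 1 with a pseudocount of 10, 16 of 53 without a filter and 0 of 2 at a mean of at least 100, where fewer members remain, and the median ratio stayed between -0.32 and -0.12. The planned count tests (edgeR and DESeq2) were not run on GMP values, although all of these are whole multiples of a step. Low members such as Snord92, Snord1b and Scarna8 rest on few counts.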
